A study of Drosophila melanogaster with 2 samples.

Results

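The genes described here are the Jonah proteases, the trypsins and 3 related serine proteases (Ser6, Ser8 and yip7) of the Drosophila melanogaster gut. They were chosen by a rule on names that was written with earlier results of these data known. It took every locus whose symbol began with Jon and a number, ended in Try, or was Ser6, Ser8 or yip7. Symbols that join several genes were left out. This gave 29 members of 13822 loci, namely 16 Jonah genes, 10 trypsins and the 3 singletons, and all 29 passed the filter on low counts. RNA came from posterior midguts of 9-day-old females of 1 strain, 5966GS-GAL4; UAS-Gli-RNAi, whose genotype field reads wild type and which carries the driver and the RNAi transgene in both conditions. In the Gli-RNAi (RU+) condition RU486 switched on RNAi against Gli, the tricellular junction gene gliotactin, in enterocytes, where the labels place the knockdown by the GeneSwitch driver 5966GS, and the control (RU-) received ethanol and kept the RNAi uninduced. Each condition had 75 midguts and 3 libraries. The labels call the libraries biological replicates and also say that midgut samples were pooled to extract RNA. The tests therefore measure the spread between these libraries, and part of it may be technical. RU486 and the knockdown come together in this design and cannot be told apart.

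Digestive serine proteases of the S1 family are made by enterocytes as inactive precursors, secreted into the gut lumen and activated there by cleavage. Trypsins cut proteins after arginine and lysine, and chymotrypsin-like enzymes, the class to which the Jonah proteins are related, cut mainly after large hydrophobic residues. Both families grew by tandem duplication, and the number in a Jonah symbol is the cytological band at which the gene lies. Paralogues of a cluster are alike in sequence and may share reads. How the authors' counting treated such reads is not given in the sources used here, so values of single paralogues are uncertain to that extent.

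The libraries held between 6821910 and 14303719 reads with 1 transcript row per locus. Gli itself stood at 2066, 1973 and 1847 normalised reads in the controls and 882, 895 and 920 in the induced libraries, a 2.18-fold fall. A normalised read count is the number of reads divided by a library scaling factor with a mean of 1, and changes are log2 fold changes, Gli-RNAi over control, with their SE from the quasi-likelihood F test of edgeR, Benjamini-Hochberg adjusted over 8236 genes and called at an adjusted p under 0.05. All 6 enterocyte markers were detected, with a summed level of 53387 to 59476 in the controls and 53114 to 55027 in the induced libraries. The libraries of the conditions overlapped in that sum, but its genes moved in both directions: Myo61F, nub and mex1 rose, and Npc1b fell 2.04-fold, from 20644 ± 1268 to 10107 ± 201 (SD, n = 3). Control replicate 3 was the highest control in 26 of the 29 members. Because whole tissue was sequenced, fewer cells of a type and less RNA per cell cannot be told apart.

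More of these proteases fell than rose. Of the 29 members 18 fell, 8 rose and 3 did not pass the test, whereas 26.8% of all genes tested fell and 27.6% rose, 54.3% in all. With library totals as scaling the members gave 16 falls and 10 rises, against 18.4% and 45.4% of all genes. A change of at least 2-fold was called for 9 members that fell and 3 that rose, against 7.44% and 5.55% of all genes. The median log2 fold change was -0.35 over the members and 0.03 over all genes tested. Changes ran from -4.32 for Jon44E to 2.66 for Jon66Cii, and their SD was 1.31 over the members and 0.87 over all genes. In 26 of the 29 members, 8 higher and 18 lower, the libraries of the conditions did not overlap. Over all genes the share was 60.4% (31.6% higher and 28.8% lower), and these genes were not matched to the members in read count. Among the Jonah genes 9 fell and 6 rose, and among the trypsins 7 fell and 1 rose.

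Markers of other cell types also differed between the conditions, in both directions. Over all genes tested 26.8% fell and 27.6% rose. The summed level of 4 progenitor markers was 1110 to 1267 normalised reads in the controls and 3428 to 3603 in the induced libraries, and all 4 rose. That of 4 markers of the anterior gut, crop and salivary gland was 9394 to 9822 against 3416 to 3516, with Sgs3 at 0. In that list Mal-A4, which held most of the sum, fell 4.01-fold and dve 1.21-fold, while pdm2 rose 4.39-fold, from 163 ± 19.0 to 725 ± 28.9 (SD, n = 3, edgeR adjusted p = 9.0e-11). The 4 copper cell region markers summed to 1769 to 1874 against 1022 to 1110 (3 of 3 tested fell), 4 markers of Malpighian tubule and hindgut to 1379 to 1562 against 632 to 676 (4 of 4 fell), 5 of the fat body to 3338 to 3575 against 1217 to 1259 (3 of 3 tested fell) and 5 of enteroendocrine cells to 5795 to 5903 against 4651 to 4821 (3 of 5 fell). The 4 visceral muscle markers summed to 7877 to 8495 against 7206 to 7703 (1 of 4 fell). Of 4 genes listed for the sperm storage organs Send1 was at 0, Send2 and yellow-g had 2 and 4 reads in all, and fiz held the rest of a sum of 7415 to 7650 against 2271 to 2358. Apart from the progenitor list, the summed level of every list in this paragraph was lower after induction, with pdm2 moving the other way. The part of any of these lists in the protease changes was not tested.

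**Figure D1:**
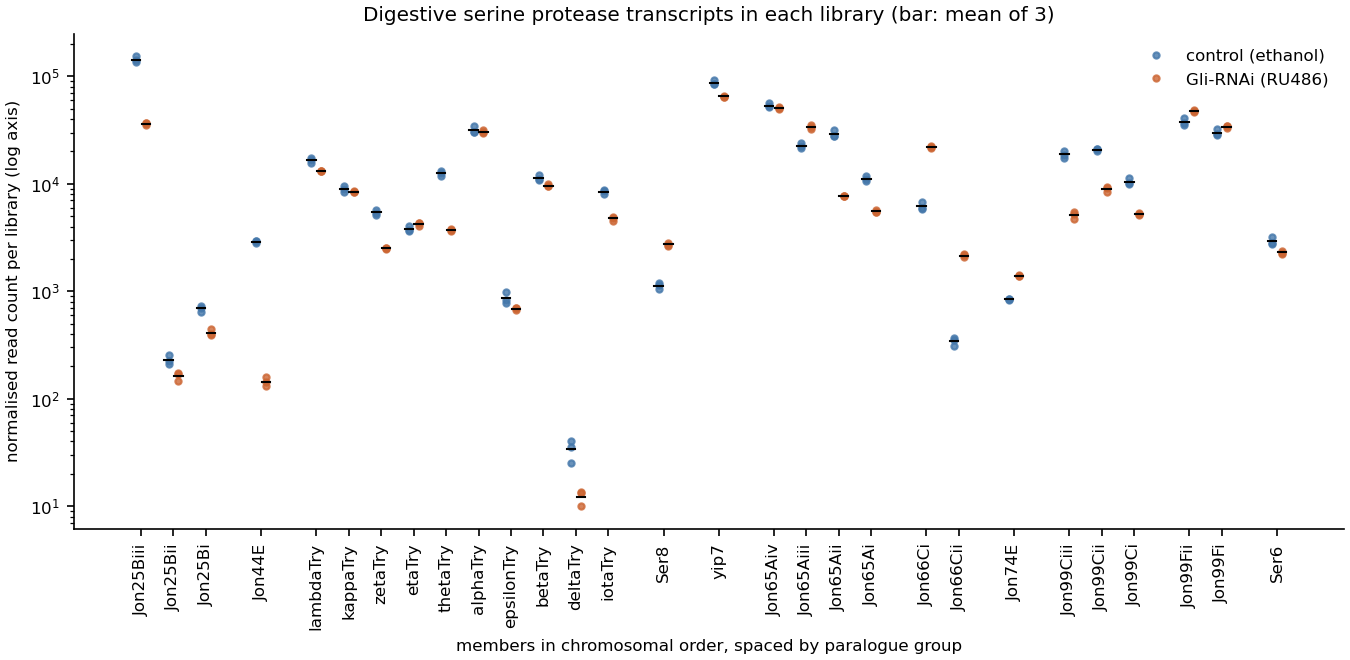
Normalised read count (log axis) of each of the 29 members in each of the 6 libraries, in chromosomal order and spaced by paralogue group; points are libraries and bars the mean of 3. Control levels ran from 33.9 for deltaTry to 142988 for Jon25Biii, and the points of a condition lay close together for most members.

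The Jon25B cluster on 2L held the most abundant member and fell in all 3 genes. The genes lie in a row on the minus strand between 4949947 and 4955353, in a build that the deposited table does not name, each as a single exon. Jon25Biii had 140437, 134770.0 and 153758 normalised reads in the controls and 34907, 36969 and 36392 in the induced libraries. Every control lay far above every induced library, and the fall was 3.96-fold (log2 fold change -1.99 ± 0.058, edgeR adjusted p = 2.7e-12). Per kb of transcript its level in the controls was the 2nd highest of all genes tested, at 175016 ± 11931 (SD, n = 3), and in the induced libraries the 11th, at 44173 ± 1302.

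Its neighbours Jon25Bii and Jon25Bi were expressed at a small part of that level. Jon25Bii had 224, 212 and 256 normalised reads in the controls and 147, 174 and 169 after induction, and fell by 0.50 ± 0.101 on the log2 scale (edgeR adjusted p = 8.4e-04). Jon25Bi had 647, 705 and 728 against 389, 445 and 400.1, and fell by 0.76 ± 0.075 (edgeR adjusted p = 1.0e-06). The libraries did not overlap for either gene. The log2 ratio of Jon25Biii to Jon25Bii reads within a library, which does not depend on scaling, went from 9.28 ± 0.043 in the controls to 7.79 ± 0.086 (SD, n = 3).

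Jon44E on 2R, the sole member of its band, fell more than any other. Its normalised counts were 2942, 2787 and 2946 in the controls and 143, 130.1 and 158 in the induced libraries. That is a 20.0-fold fall (log2 fold change -4.32 ± 0.074, edgeR adjusted p = 2.0e-14), with a range from -4.39 to -4.13 over 13 other settings. Per kb it went from the 353rd place among all genes tested to the 3492nd.

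The Jon65A cluster on 3L, with yip7 beside it, changed in both directions. The genes lie between 6028330 and 6047526 in the order yip7, Jon65Aiv, Jon65Aiii, Jon65Aii and Jon65Ai. Jon65Aiii had 22309, 21729 and 23964 normalised reads in the controls and 32684, 35000.4 and 33782 after induction, a 1.49-fold rise (0.58 ± 0.051, edgeR adjusted p = 3.3e-07). Jon65Aii, 649 bp away on the same strand, had 27793, 27982 and 31666 against 7667, 7773 and 7624, a 3.79-fold fall (-1.92 ± 0.056, edgeR adjusted p = 2.7e-12). Control libraries held more Jon65Aii than Jon65Aiii reads, and each induced library held more Jon65Aiii. The log2 ratio of Jon65Aiii to Jon65Aii reads moved from -0.36 ± 0.043 to 2.14 ± 0.041 (SD, n = 3), the largest shift among the 19 pairs of neighbouring members.

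The remaining genes of this stretch fell or did not pass. Jon65Ai, on the opposite strand, had 11119.5, 10590.4 and 11792 normalised reads in the controls and 5456, 5442 and 5756 in the induced libraries, a 2.01-fold fall (edgeR adjusted p = 1.0e-09). yip7, the 2nd most abundant member, had 84656, 84247 and 92182 against 66186, 64535 and 64676 and fell 1.34-fold (-0.42 ± 0.051, edgeR adjusted p = 8.1e-06). Jon65Aiv did not pass, at 52465, 51463 and 56215 against 50639, 51974 and 50141 (-0.07 ± 0.049, edgeR adjusted p = 0.26). Its libraries overlapped, and with library totals as scaling its value turned to 0.12. The locus CG6462 lies between yip7 and Jon65Aiv.

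Both Jon66C genes rose, and Jon66Cii had the largest increase of the family. They lie at 8384642 to 8386749 on 3L on opposite strands, 478 bp apart at their ends. Jon66Ci had 5956, 5784 and 6734 normalised reads in the controls and 21629, 22001 and 22389 in the induced libraries, a 3.58-fold rise (1.84 ± 0.058, edgeR adjusted p = 6.3e-12). Jon66Cii had 349.9, 307 and 369 against 2073, 2208 and 2166, a 6.33-fold rise (2.66 ± 0.073, edgeR adjusted p = 1.4e-12). No induced library came near a control for either gene. Jon66Ci moved from the 187th to the 23rd place per kb among all genes tested.

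Among the Jonah genes on 3R those of Jon99C fell and those of Jon99F rose. Jon99C has 3 genes. Jon99Ciii had 18675, 17550.1 and 20217 normalised reads in the controls and 4751, 5459 and 5231 after induction (3.66-fold, edgeR adjusted p = 1.5e-11). Jon99Cii had 20165, 20955 and 21249 against 9332, 8386 and 9224 (2.31-fold, edgeR adjusted p = 1.7e-10), and Jon99Ci had 10081, 9879 and 11225 against 5366, 5088 and 5219 (1.99-fold, edgeR adjusted p = 2.3e-09). The controls lay above the induced libraries throughout the cluster.

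In Jon99F, 560827 bp further along, both genes rose. Jon99Fii had 37138, 35189 and 40671 normalised reads in the controls and 46274, 48893 and 48051 in the induced libraries, a 1.27-fold rise (0.34 ± 0.056, edgeR adjusted p = 1.4e-04). Jon99Fi had 28869.6, 28204 and 32642 against 33248, 34484 and 34131, a 1.14-fold rise (0.18 ± 0.057, edgeR adjusted p = 0.014). The highest control lay just under the lowest induced library for Jon99Fi, and its edgeR call was lost without control replicate 1 (adjusted p = 0.066), control replicate 2 (0.20), induced replicate 2 (0.058) or induced replicate 3 (0.058).

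Jon74E on 3L, the one member with 4 exons, rose. It had 848, 847 and 829 normalised reads in the controls and 1407, 1375 and 1373 in the induced libraries (1.65-fold, 0.72 ± 0.055, edgeR adjusted p = 7.7e-08). These values are of its longest transcript row, of 1323 bp. A shorter row of 903 bp with 3 exons held only 41 control and 11 induced reads in all and went the other way.

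**Figure D2:**
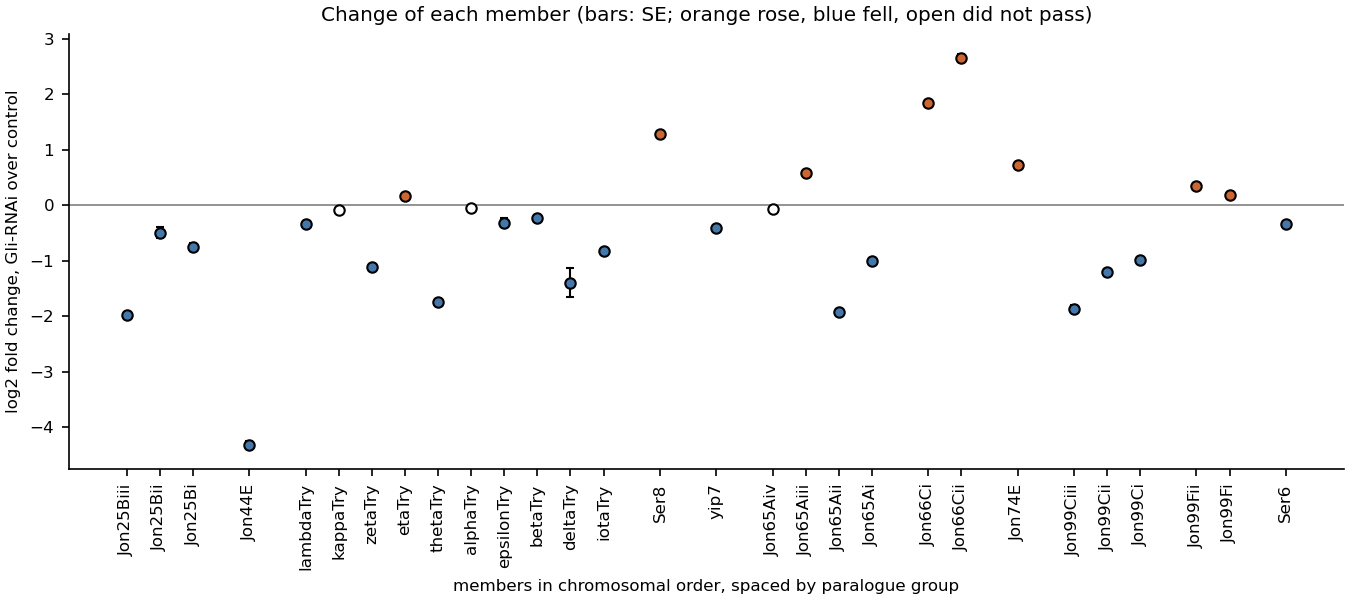
Log2 fold change of each member, Gli-RNAi over control, with its SE, in chromosomal order and spaced by paralogue group; orange points rose, blue fell and open points did not pass. Within the Jon65A and trypsin groups neighbours lie on both sides of 0, while the Jon25B and Jon99C genes all lie below it and the Jon66C and Jon99F genes above.

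All 10 trypsin members lie in 1 cluster on 2R, between 7224353 and 7245041, in the order lambda, kappa, zeta, eta, theta, alpha, epsilon, beta, delta and iota. Their summed level went from 99614 ± 5653 to 77550.1 ± 535 normalised reads (SD, n = 3), or 1.28-fold lower. The genes differed widely. thetaTry had 12670.4, 11806 and 13042 in the controls and 3783, 3657 and 3686 after induction, a 3.37-fold fall (-1.75 ± 0.051, edgeR adjusted p = 2.5e-12), and the controls were far above the induced libraries.

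The genes on both sides of thetaTry differed from it. etaTry, 290 bp away on the same strand, had 3749.9, 3603 and 4023 normalised reads in the controls and 4316, 4078 and 4273 in the induced libraries (0.16 ± 0.053, edgeR adjusted p = 0.022). It is the only one of the 10 that passed the test as higher, and the call was lost with median-of-ratios size factors (adjusted p = 0.055), with the DESeq2 Wald test (0.096) and without any of 4 libraries: control replicate 1 (0.069) or 2 (0.24) and induced replicate 1 (0.086) or 3 (0.085). The log2 ratio of etaTry to thetaTry reads went from -1.72 ± 0.031 to 0.19 ± 0.028 (SD, n = 3), so that thetaTry led in each control and etaTry in each induced library.

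alphaTry, the most abundant trypsin, lay on the other side. Its 30485, 30219 and 34124 normalised reads in the controls and 29795, 31410.4 and 30054 in the induced libraries overlapped (-0.06 ± 0.054, edgeR adjusted p = 0.42). With library totals as scaling its value was 0.14. kappaTry did not pass either, at 9012, 8449 and 9551 against 8581, 8335 and 8442 (-0.09 ± 0.051, edgeR adjusted p = 0.16, or 0.031 without control replicate 2), and its value turned to 0.10 when scaled by library totals. Its 3′ end lies 5 bp from that of lambdaTry, and the strand setting of the counting is not given.

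zetaTry and iotaTry fell to a middle extent. zetaTry had 5354, 5169 and 5742 normalised reads in the controls and 2526, 2459 and 2543 in the induced libraries (2.16-fold, edgeR adjusted p = 3.7e-10). iotaTry had 8492, 8019.8 and 8764 against 4942, 4518 and 4814 (1.77-fold, edgeR adjusted p = 9.8e-09). For both genes the libraries were clearly separate.

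The other trypsins fell by little or were hard to measure. lambdaTry fell by 0.34 ± 0.049, epsilonTry by 0.32 ± 0.079 and betaTry by 0.23 ± 0.051 on the log2 scale, and the calls of epsilonTry (adjusted p = 0.16) and betaTry (0.41) were lost with library totals as scaling. deltaTry had the lowest level of the family, at 40.6, 25.3 and 35.8 normalised reads in the controls and 13.3, 13.5 and 9.98 after induction (-1.40 ± 0.261, edgeR adjusted p = 4.0e-04). It overlaps CG13202 on the opposite strand, and the neighbouring loci CG30025 and gammaTry/CG30031 had 0 reads in all 6 libraries, so its counts are uncertain.

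Ser8 and Ser6, which encode further S1 proteases and lie outside the Jonah and trypsin clusters, went in opposite directions. Ser8 on 2R had 1181, 1055 and 1144 normalised reads in the controls and 2651, 2824 and 2715 in the induced libraries, a 2.43-fold rise (1.28 ± 0.058, edgeR adjusted p = 3.0e-10). Ser6 on X had 2818, 2738 and 3217 against 2389, 2265 and 2234, a 1.27-fold fall (-0.35 ± 0.063, edgeR adjusted p = 3.4e-04). Neither gene's libraries overlapped.

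Members that follow each other along a chromosome often changed by different amounts. Other loci could lie between them: CG6462 between yip7 and Jon65Aiv, and CG30025 and gammaTry/CG30031 between betaTry and deltaTry. Of the 19 pairs of neighbouring members, 5 to 10625 bp apart, 18 had log2 ratios of reads that did not overlap between the conditions. Over 6031 pairs of consecutive tested loci under 15000 bp apart the share was 60.3%, without matching for read count. All 18 member pairs had an exact two-sided permutation p = 0.10, the smallest that 3 against 3 libraries can give, and 0.106 after adjustment over the 19 pairs. The median absolute difference in log2 fold change between neighbours was 0.66 for members and 0.45 for all pairs, and it was over 1 in 7 of the 19 and in 20.5% of all pairs. In 3 of the 19 member pairs (15.8%) one gene rose and the other fell, a share near the 11.9% of all pairs. They were zetaTry with etaTry, etaTry with thetaTry, and Jon65Aiii with Jon65Aii, and the etaTry call behind 2 of them was lost in 6 of 13 other settings.

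The members share a compact gene structure that their choice did not use. Single-exon rows made up 23 of the 29, or 79.3%, against 10.6% of all tested loci, and their transcripts measured 780 to 1323 bp with a median of 893 bp against 1958 bp for all tested loci.

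As a group these proteases took a smaller part of the reads after induction. Their share of all reads was 5.54%, 5.40% and 5.81% in the controls and 4.47%, 4.55% and 4.49% in the induced libraries, without overlap (5.58% ± 0.209 against 4.51% ± 0.0380, SD, n = 3, exact two-sided permutation p = 0.10, 0.125 adjusted over 5 such quantities). The difference was -1.07 percentage points, or -0.70 with the transcript rows of a locus summed. Most of that net drop lay in 1 gene, as falls and rises among the other 28 members largely offset each other. Jon25Biii went from 1.38% ± 0.0641 to 0.397% ± 0.0104 of all reads, which is 91.3% of the drop in percentage points. The share of the other 28 members, a set formed after the values were seen, was 4.16%, 4.08% and 4.36% in the controls and 4.09%, 4.14% and 4.09% after induction, and the libraries overlapped (exact two-sided permutation p = 0.40).

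On the scale of normalised reads the picture was less concentrated. The members summed to 578771 ± 34475 in the controls and 409081 ± 4491 after induction, 1.41-fold lower, and Jon25Biii made up 63.0% of the difference. The other 28 were 1.17-fold lower on that scale, from 435783 ± 24759 to 372992 ± 3473 (SD, n = 3), without overlap. Library totals in place of the normalisation factors moved the median of all genes up by 0.19 (log2) and the calls over all genes from 2272 higher and 2204 lower to 3737 and 1512.

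**Figure D3:**
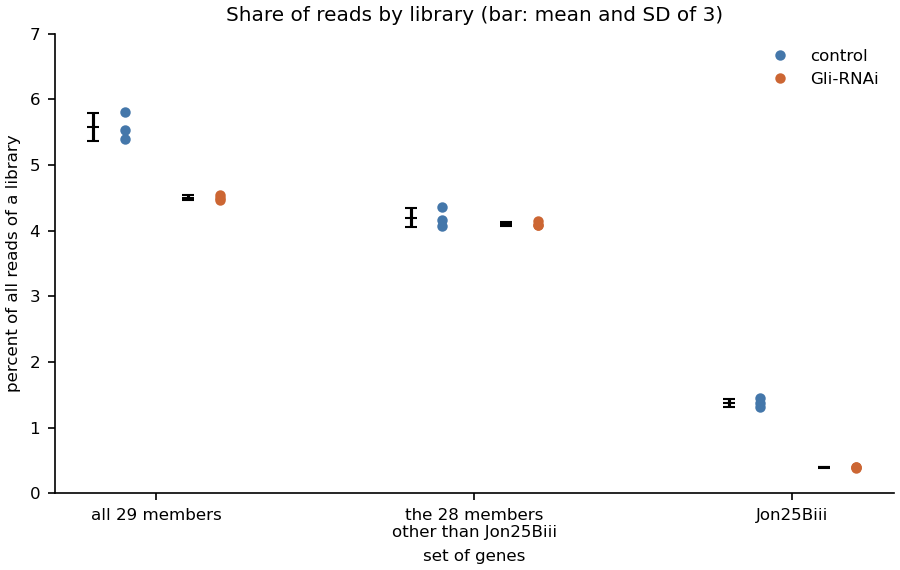
Percent of all reads of a library taken by all 29 members, by the 28 members other than Jon25Biii and by Jon25Biii alone; points are libraries, bars the mean and SD of 3. The total went from 5.58% to 4.51% and Jon25Biii from 1.38% to 0.397%, while the points of the other 28 overlapped.

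The make-up of the protease reads became more even. In the controls Jon25Biii led with 24.7% ± 0.240 of the members' reads, ahead of yip7 with 15.04% ± 0.199, Jon65Aiv with 9.23% ± 0.115 and Jon99Fii with 6.504% ± 0.110 (SD, n = 3). In the induced libraries yip7 led with 15.9% ± 0.390, then Jon65Aiv with 12.45% ± 0.165, Jon99Fii with 11.7% ± 0.204 and Jon25Biii with 8.82% ± 0.169. Jon66Ci went from 1.06% ± 0.0237 to 5.38% ± 0.0825. The effective number of members, which is the number of equally abundant genes that would give the same evenness (inverse Simpson index), was 8.97, 9.00 and 8.91 in the controls and 11.3, 11.3 and 11.4 in the induced libraries (exact two-sided permutation p = 0.10, 0.125 adjusted).

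**Figure D4:**
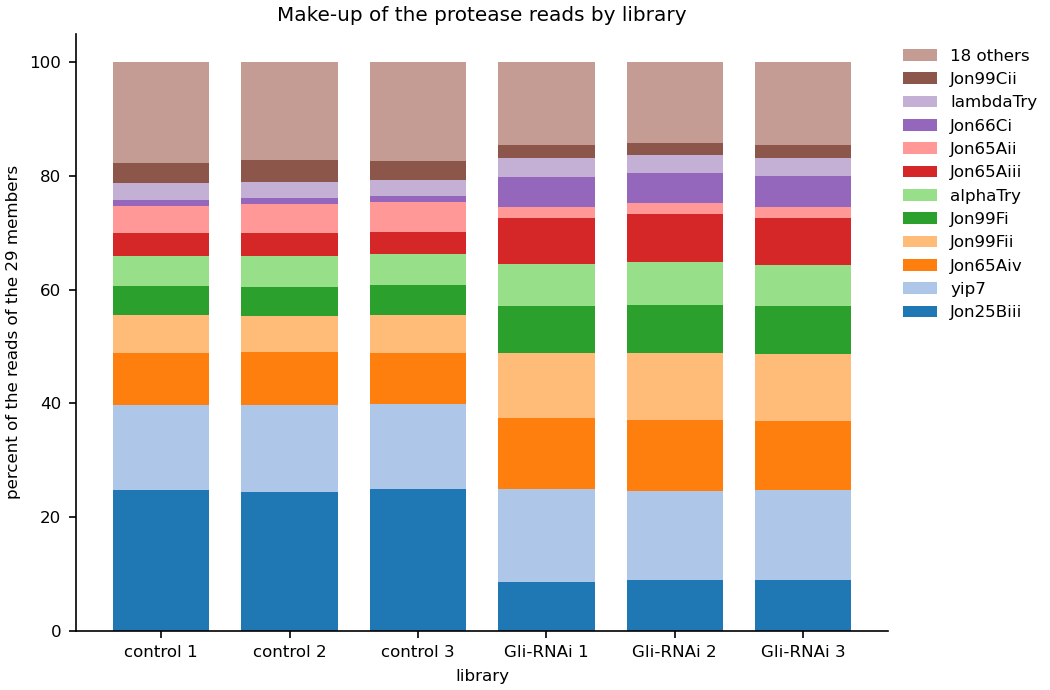
Percent of the reads of the 29 members held by each of the 11 most abundant and by the 18 others, in each library. The 3 bars of a condition look alike, and Jon25Biii shrinks from 24.7% to 8.82% while Jon66Ci, Jon65Aiii and Jon99Fii widen.

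By group sums Jon25B went from 143912 ± 9791 to 36664 ± 1102 normalised reads, Jon99C from 49998 ± 2347 to 19352 ± 379.8 and Jon65A from 116362 ± 6372 to 97979 ± 1961 (log2 ratio -0.25, or -0.06 with library totals), while Jon66C went from 6500.4 ± 533 to 24155 ± 429 and Jon99F from 67571 ± 5141 to 81693 ± 1973 (SD, n = 3). On this scale libraries did not overlap in any of the 11 groups, each with an exact two-sided permutation p = 0.10, the smallest possible here. Taken singly, 60.4% of all genes tested did not overlap either, and some of the groups are single genes. With library totals the Jon65A libraries overlapped (exact two-sided permutation p = 0.20). Abundance and change were only weakly related over the 29 genes, which share their libraries. Spearman's rho between the control level per kb and the log2 fold change was -0.12, given as a description.

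**Figure D5:**
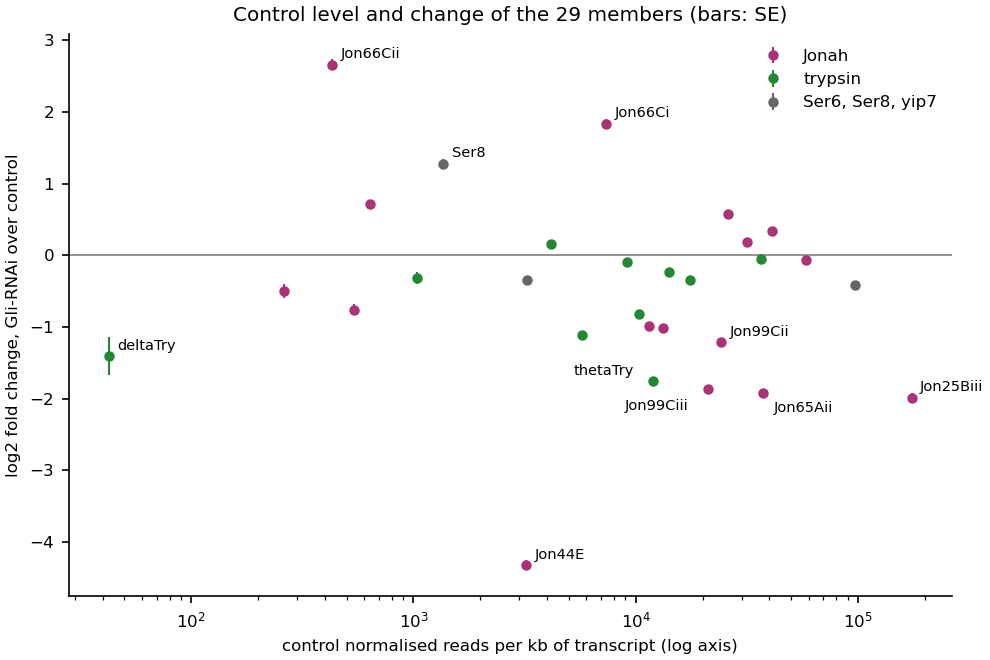
Control level per kb of transcript (log axis) against log2 fold change with its SE for the 29 members, coloured by kind; members beyond 1.2 in either direction are named. Genes that fell and genes that rose both occur among rare and abundant members.

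Most tested genes in a list of other S1 serine proteases, written with earlier results of these data known, fell too. Of its 60 names, 52 matched a locus of their own, 24 were tested, 19 fell and 3 rose (median log2 fold change -0.61). Over all genes tested 26.8% fell and 27.6% rose, with a median of 0.03. Of the 52, 13 were at 0 reads. The 3 most abundant were CG10472, which fell from 130929 ± 5975 to 105794 ± 892 normalised reads, CG11911, from 69393 ± 3839 to 39226 ± 1170.1, and CG17571, from 55751 ± 3901 to 32456 ± 442 (SD, n = 3). CG18180 fell 6.06-fold (edgeR adjusted p = 4.7e-13) and Phae2 2.26-fold. The largest rises were in genes with few reads, CG18179 from 29.4 ± 12.4 to 73.3 ± 13.8 and CG6462 from 14.3 ± 1.59 to 26.9 ± 4.88.

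Other classes of peptidase were divided. A list of metallocarboxypeptidase, astacin, aspartic and cysteine protease genes held 47 names. Of these 44 matched a locus, with 11 at 0 reads. Of the 22 tested, 8 fell and 7 rose (median -0.04). Over all genes tested 26.8% fell and 27.6% rose. The carboxypeptidase genes CG17633 and CG8560 fell 2.34-fold and 4.31-fold and the aspartic protease gene Bace 2.47-fold, while the astacin gene CG15255 rose 1.61-fold, the cysteine protease gene CG6357 2.03-fold and Pgcl 1.79-fold. Among 12 genes listed as regulators of enterocytes or of digestive enzymes 6 fell and 1 rose, against 26.8% and 27.6% of all genes tested. The 1 that rose was nub, from 2695 ± 84.7 to 4193 ± 172 normalised reads. Myc and sug, the other abundant ones, fell by 0.52 ± 0.078 and 0.21 ± 0.050 on the log2 scale. The genes that fell most were foxo and daw, by 0.73 ± 0.064 and 1.92 ± 0.358. Few reads lay in daw, at 17.2 ± 4.06 normalised reads in the controls and 4.81 ± 1.80 after induction (SD, n = 3). GATAe, a transcription factor gene of the gut endoderm, did not pass (-0.11, edgeR adjusted p = 0.11).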

How the data were processed

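Read counts per transcript were deposited by the authors for 3 libraries of each condition, and per the file headers a read in an exon shared by transcripts counts in each of them. The deposited signal, per the file headers, is a constant times the base pairs of reads in a transcript over all mapped base pairs and the transcript length. The authors' gene table holds log2 fold changes averaged over changed transcripts and the smallest p-value of a gene. DESeq is named in the submitters' processing notes. For the aligner, strand setting, genome build and treatment of reads that match several genes, the sources used here name nothing.

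One transcript row per locus, that with the highest mean count, was kept. edgeR 4.0.16 (R 4.3.3) was run with TMM factors and filterByExpr, which left 8236 genes, and the quasi-likelihood F test of Gli-RNAi against control was Benjamini-Hochberg adjusted at 0.05. Log2 ratios of neighbours used reads + 0.5. Sums and shares were compared by two-sided exact permutation tests, whose smallest p with 3 against 3 libraries is 0.10. DESeq2 1.42.0, other scalings, no filter, summed rows, a replicate block and leaving out each library were alternatives. The fitting steps were tested on simulated data.

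Members and lists were chosen with earlier results of these data known. Every member is named. Of each protease and regulator list the text gives counts and the 3 matched genes with the highest mean. It also gives the 2 called genes with the largest change in each direction. Of each marker list it gives counts and sums. Library totals of 6821910 to 14303719 reads limit the precision of rare members.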

Additional observations from a re-analysis of the deposited data

How the results depend on the processing

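Over 13 alternatives 22 of the 29 members kept both direction and call, and 7 did not. Library totals as scaling turned alphaTry to 0.14 and Jon65Aiv to 0.12, both called higher with edgeR (adjusted p = 0.015 and 0.012), and removed the calls of epsilonTry and betaTry. That scaling also moved the median of all genes up by 0.19 (log2), and why the scalings differ was not tested. The number of members that rose was 6 to 8 and of those that fell 18 to 19 when 1 library was left out, and 7 and 18 with median-of-ratios size factors or with DESeq2. Leaving out libraries ended the calls of etaTry and Jon99Fi as given with their values, and without control replicate 2 kappaTry passed. Scaling from the other loci, no filter and summed transcript rows changed no member's call. The drop in the members' share of reads was -1.07 percentage points, -1.02 with all mapped reads as the denominator, -0.70 with summed rows and -1.17 to -0.96 without 1 library. Deviations of same-numbered libraries from their condition means had correlations of -0.155, 0.0472 and -0.0925 over 6838 genes. With only 3 libraries per condition such values cannot show whether the numbers pair the libraries. A fit with the replicate block gave 8 rises and 18 falls among the members, and 2168 and 2113 over all genes. Depth limits deltaTry, with 9.98 to 40.6 normalised reads per library, most.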

Other observations

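A locus with the joined name Try29F/CG18661 was outside the naming rule. It had 4175, 4138 and 4621 normalised reads in the controls and 909, 842 and 891 in the induced libraries, a 4.88-fold fall (-2.29 ± 0.060, edgeR adjusted p = 1.1e-12). Its level lay between those of etaTry and zetaTry in the controls, and its fall was larger than that of any of the 10 trypsins of the cluster.

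Jon74E is the one gene with several rows in the authors' deposited table, at log2 fold changes of -2.54 and 0.70. The shorter transcript row had 12, 19 and 10 reads in the controls and 6, 2 and 3 in the induced libraries, or 16.7 ± 1.11 and 2.92 ± 0.794 normalised reads (SD, n = 3), and no overlap. It is a small part of the 2042 and 4965 reads of the longest row.

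The authors' deposited table lists 18 of the 29 members, and it holds 3049 entries against 13822 loci with counts. Its smallest rise over all genes is 0.133, the value of etaTry, and its smallest fall is -1.001. All 8 members called higher here are in the authors' deposited table, while 8 members called lower here are not listed there. The authors' own adjusted p per transcript was under 0.05 for 26 of the 29 members, those 8 among them. A count of listed genes by direction, 2180 higher and 817 lower in the authors' deposited table, therefore rests on different sizes of change.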
